A study of Mus musculus with 8 samples.

Results

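The nicotinic acetylcholine receptor was represented here by 5 subunit genes, *Chrna1*, *Chrnb1*, *Chrnd* and *Chrne* of the muscle-type receptor, and *Chrna9*. They were taken from the table of read counts by gene symbol and make up 5 of its 12551 genes. Bulk RNA sequencing was performed on tibialis anterior (TA) muscle, a fast-twitch muscle of the lower leg, from 4 wild-type (WT, Klotho wt/wt) and 4 KL-/- (Klotho null/null) male mice at 7 weeks of age. Klotho is a transmembrane protein of the kidney and other tissues that acts as a co-receptor for a phosphate-regulating hormone, and mice without it age prematurely. The KL-/- mice were born to heterozygous parents on a mixed background and lacked Klotho in the whole body, so the genotype is not a muscle-specific model. *Kl* itself was not analysed here, so each mouse's genotype is as labelled and was not checked in the counts. The comparison addressed how the receptor transcripts differed between KL-/- and WT muscle. The paper had already reported *Chrna1*, *Chrna9* and *Chrne* as raised in KL-/-.

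At the neuromuscular junction, acetylcholine released by the motor nerve opens a pentameric ion channel in the muscle membrane that is built from alpha, beta, delta and epsilon subunits. *Chrna1* encodes the alpha subunit that binds acetylcholine, *Chrnb1* the beta subunit, *Chrnd* the delta subunit and *Chrne* the epsilon subunit, which takes the place of the fetal gamma subunit after birth. *Chrna9* encodes an alpha subunit known mainly from cochlear hair cells and is not a part of the classical muscle receptor. Transcription of the muscle subunit genes is driven by myogenic factors that bind E-boxes and, under the endplate, by ETS factors that bind N-boxes. For some of these genes, though not all, transcription rises along the fibre when a muscle loses its nerve.

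The promoters of 4 of the 5 subunits are shown because the letters that myogenic and ETS factors recognise lie in them. A promoter of *Chrnd* was not available here. A link between these letters and the transcript differences was not tested. Each is the 250 bases upstream of the annotated start, written 5′ to 3′ on the strand of the gene, from RefSeq on GRCm38.p6. E-boxes (CANNTG, which reads the same on both strands) and N-boxes (CCGGAA, searched on both strands) are in capitals.
Chrna1 promoter, chr2:73580339-73580588, minus strand: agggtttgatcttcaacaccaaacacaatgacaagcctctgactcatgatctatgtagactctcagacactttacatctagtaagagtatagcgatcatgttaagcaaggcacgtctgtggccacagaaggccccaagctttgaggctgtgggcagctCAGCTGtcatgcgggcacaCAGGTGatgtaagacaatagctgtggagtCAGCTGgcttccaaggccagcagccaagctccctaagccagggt
Chrnb1 promoter, chr11:69795938-69796187, minus strand: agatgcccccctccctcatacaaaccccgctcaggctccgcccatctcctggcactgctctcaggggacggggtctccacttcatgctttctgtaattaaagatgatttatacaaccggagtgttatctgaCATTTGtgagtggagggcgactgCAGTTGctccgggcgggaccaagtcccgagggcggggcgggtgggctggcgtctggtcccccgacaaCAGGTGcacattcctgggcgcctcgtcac
Chrne promoter, chr11:70619195-70619444, minus strand: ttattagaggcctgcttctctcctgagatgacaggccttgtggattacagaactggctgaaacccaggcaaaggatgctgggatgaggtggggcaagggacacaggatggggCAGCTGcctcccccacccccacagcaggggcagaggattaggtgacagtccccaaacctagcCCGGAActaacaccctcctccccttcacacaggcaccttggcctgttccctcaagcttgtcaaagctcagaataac
Chrna9 promoter, chr5:65966874-65967123, plus strand: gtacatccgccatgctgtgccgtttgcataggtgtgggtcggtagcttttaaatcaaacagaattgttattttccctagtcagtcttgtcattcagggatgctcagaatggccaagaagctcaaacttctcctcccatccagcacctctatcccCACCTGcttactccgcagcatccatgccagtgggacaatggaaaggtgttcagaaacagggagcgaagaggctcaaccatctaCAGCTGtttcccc
The *Chrna1* window held 3 E-boxes, starting at -92, -73 and -44 counted from the start, of which the first and last read CAGCTG. The *Chrnb1* window also held 3, at -119, -96 and -29, none of which read CAGCTG. *Chrne* held 1 E-box, a CAGCTG at -138, and the only N-box of the 4 windows, at -76. *Chrna9* held 2 E-boxes, at -96 and -13, the nearer one a CAGCTG. Among 32851 such windows of all genes, 66.2% held an E-box, 31.8% held 2 or more, 13% held a CAGCTG and 12% an N-box, and the matches are given as a description only. The starts are those of RefSeq, and GENCODE M21 begins *Chrna9* further upstream, at chr5:65934921, so its window depends on the annotation.

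Libraries held between 20860262 and 29273758 counted reads, and a floor of 3 counts lay between 0.105 and 0.143 CPM (counts of a gene per 1000000 counts of its library). CPM were scaled with TMM factors, which were 1.02 to 1.05 in WT and 0.950 to 0.980 in KL-/-. Across the whole table, 1759 genes passed a false discovery rate (FDR) of 0.05 in edgeR's quasi-likelihood test, of which 922 were higher and 837 lower in KL-/-. One library, KL-/- replicate 3, carried a later date in the batch label than the other 7. Genes of fast fibres were abundant in every library, with 8 myofiber markers summing to 136374 to 157117 CPM in the WT libraries and 163661 to 213799 CPM in the KL-/- libraries.

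Transcripts of 3 of the 5 receptor subunits, *Chrna1*, *Chrne* and *Chrna9*, were higher in KL-/- than in WT muscle, and none was lower. Of all genes tested, 7.35% were called higher and 6.67% lower. *Chrna1* was 1.83-fold and *Chrne* 1.66-fold higher, and *Chrna9*, with 1 to 8 counts in the WT libraries, was 5.55-fold higher. *Chrnd* was 1.38-fold higher without passing the FDR threshold, and *Chrnb1*, at 1.11-fold, differed by less than the spread between mice. The KL-/- and WT values of 4 subunits did not overlap, all higher in KL-/-, against 10.2% of all genes. The 5 members were chosen with earlier results of these data known. The paper had already reported the 3 called subunits as raised in these samples and measured receptor genes by qRT-PCR. These counts are thus not independent of the data, and nothing is read from their excess over the shares of all genes. In whole muscle, more cells of a type and more RNA per cell cannot be told apart.

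**Figure D1:**
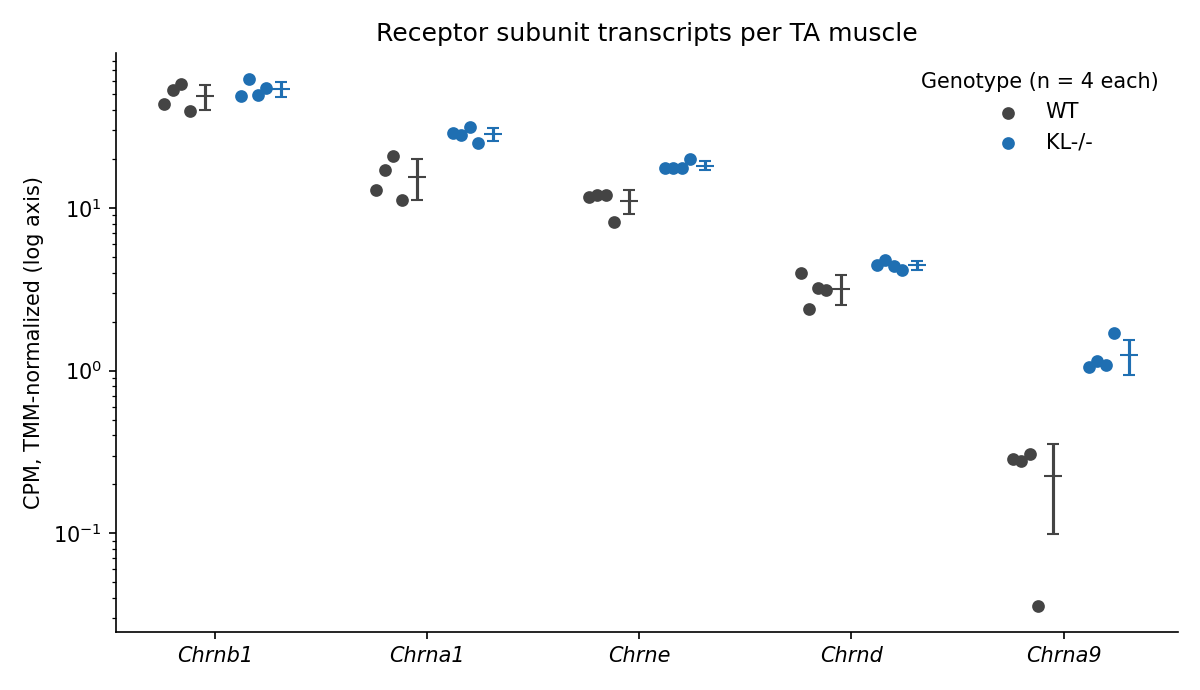
CPM of each receptor subunit on a log axis for 4 WT (grey) and 4 KL-/- (blue) muscles, with 1 point per mouse and the mean ± SD beside the points. The 2 genotypes are apart for *Chrna1*, *Chrne*, *Chrnd* and *Chrna9* and overlap for *Chrnb1*, and *Chrna9* in WT replicate 4 rests on 1 read.

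*Chrna1*, the acetylcholine-binding alpha subunit, lies at chr2:73563281-73580338 on the minus strand of mm10 and was counted over 4320 exonic bases. The WT muscles gave 12.9, 17.1, 20.9 and 11.3 CPM in replicates 1 to 4, and the KL-/- muscles 29.0, 28.1, 31.5 and 25.0 CPM. Every KL-/- muscle was above every WT muscle, and the WT muscles were the more variable, with a coefficient of variation of 27.8% against 9.48%. Mean levels were 15.6 ± 4.33 CPM in WT and 28.4 ± 2.69 CPM in KL-/- (SD, n = 4). The log2 fold change of KL-/- over WT was 0.87 (SE 0.18, 95% interval 0.475 to 1.26), with an FDR of 0.0146 in edgeR's quasi-likelihood test.

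*Chrne*, the epsilon subunit of the adult receptor, is a compact gene at chr11:70614883-70619194 on the minus strand and was counted over 1591 exonic bases. Its level was 11.6, 12.07, 11.97 and 8.21 CPM in the WT muscles and 17.6, 17.6, 17.7 and 19.9 CPM in the KL-/- muscles. Within each genotype 3 mice were nearly alike and replicate 4 stood apart, below the others in WT and above them in KL-/-. Means were 10.97 ± 1.85 CPM in WT and 18.2 ± 1.13 CPM in KL-/- (SD, n = 4). The log2 fold change was 0.73 (SE 0.12, 95% interval 0.45 to 1.01; edgeR FDR 0.00786), and it was 0.61 without WT replicate 4 and 0.68 without KL-/- replicate 4, past the threshold in both.

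*Chrnd*, the delta subunit, lies at chr1:87190597-87200070 on the plus strand and was counted over 2965 exonic bases. It gave 4.00, 2.41, 3.24 and 3.12 CPM in WT and 4.43, 4.77, 4.39 and 4.15 CPM in KL-/-. The genotypes did not overlap, but the highest WT muscle and the lowest KL-/- muscle were only 0.145 CPM apart. At 52 to 127 counts per library, counting error alone was 8.87% to 13.9%. Means of 3.19 ± 0.654 and 4.43 ± 0.257 CPM (SD, n = 4) gave a log2 fold change of 0.47 (SE 0.15, 95% interval 0.12 to 0.81) and an edgeR FDR of 0.0703. Leaving out WT replicate 1, the highest WT muscle, brought *Chrnd* past the threshold, at a log2 fold change of 0.59 and an edgeR FDR of 0.0426.

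*Chrnb1*, the beta subunit, lies at chr11:69784036-69795937 on the minus strand and was counted over 2149 exonic bases. WT muscles held 43.7, 52.9, 57.9 and 39.5 CPM and KL-/- muscles 49.03, 61.8, 49.5 and 54.7 CPM. The ranges overlapped, since 3 of the 4 KL-/- muscles lay below the highest WT muscle. Means were 48.5 ± 8.41 and 53.8 ± 5.94 CPM (SD, n = 4), and the log2 fold change of 0.15 (SE 0.13) had a 95% interval from -0.13 to 0.43, with an edgeR FDR of 0.442. Libraries held 1070 to 1519 counts of *Chrnb1*, which put counting error at 3.06% at most, against coefficients of variation between mice of 17.3% in WT and 11.1% in KL-/-. When libraries were scaled to the 8 myofiber markers in place of TMM factors, the median of all genes moved from -0.016 to -0.26, and *Chrnb1* then stood at -0.093 while the other 4 subunits stayed above 0.

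*Chrna9*, the alpha subunit outside the classical muscle receptor, lies at chr5:65967124-65977486 on the plus strand and was counted over 2003 exonic bases. The WT libraries held 7, 6, 8 and 1 counts and the KL-/- libraries 30, 24, 26 and 45 counts. This corresponds to 0.286, 0.278, 0.305 and 0.0359 CPM in WT and to 1.05, 1.15, 1.08 and 1.70 CPM in KL-/-. All KL-/- muscles were above all WT muscles, and WT replicate 4 was under the floor of 3 counts. Means were 0.226 ± 0.127 CPM in WT and 1.24 ± 0.306 CPM in KL-/- (SD, n = 4). The log2 fold change was 2.47 (SE 0.41, 95% interval 1.56 to 3.39; edgeR FDR 0.00738), the 8th largest positive value of the 12551 genes. Summed over libraries, 125 counts in KL-/- and 22 in WT gave a rate ratio of 5.68 with an exact interval of 3.59 to 9.39, which covers counting error only. Without WT replicate 4 the log2 fold change was 2.08, still past the threshold. No WT library and every KL-/- library reached 10 counts, so *Chrna9* could pass a filter at such a level only through the group where it is high, which limits what its place among the fold changes says.

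To compare levels between genes, CPM were divided by the counted length of each gene in kilobases. *Chrnb1* was the most abundant subunit transcript at 22.6 ± 3.91 CPM per kb in WT and 25.0 ± 2.77 in KL-/-. *Chrne* followed at 6.90 ± 1.16 and 11.4 ± 0.710 CPM per kb, then *Chrna1* at 3.60 ± 1.00 and 6.57 ± 0.623 CPM per kb. *Chrnd* stood at 1.08 ± 0.220 and 1.496 ± 0.0867 CPM per kb and *Chrna9* at 0.113 ± 0.0636 and 0.620 ± 0.153 CPM per kb (SD, n = 4 each). This order held in all 8 libraries, so no 2 neighbours in it changed places in any mouse. The counted lengths were the same in every library. Before division by length, mean CPM of *Chrna1* was above that of *Chrne* in both genotypes, so the order of these genes depends on the counted lengths.

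The beta transcript made up most of the summed subunit level in both genotypes, with a smaller share in KL-/-. *Chrnb1* made up 65.9% ± 1.83 of the summed CPM per kb in WT and 55.3% ± 2.86 in KL-/- (SD, n = 4). *Chrne* held 20.2% ± 1.90 and 25.4% ± 1.85, and *Chrna1* 10.4% ± 1.19 and 14.6% ± 1.97. The share of *Chrnd* was alike in both, at 3.24% ± 0.952 and 3.32% ± 0.200, and that of *Chrna9* was 0.315% ± 0.169 and 1.37% ± 0.315. The summed level itself was 34.2 ± 5.83 CPM per kb in WT and 45.1 ± 2.65 in KL-/-.

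**Figure D2:**
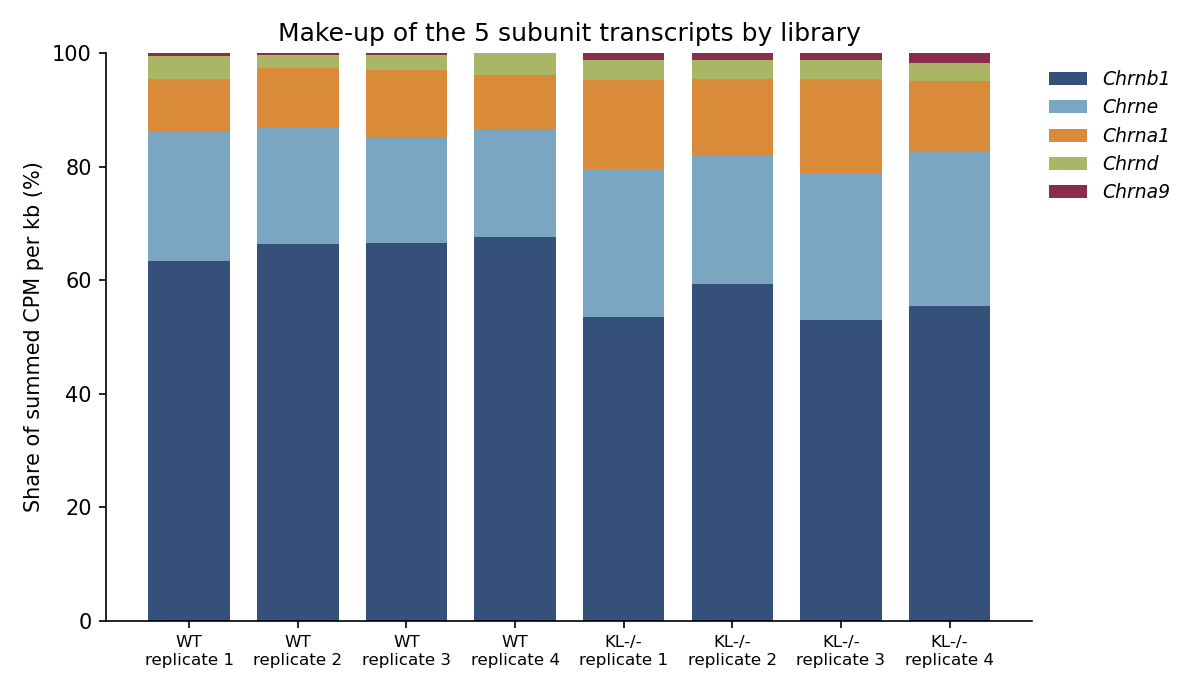
Stacked bars of the share, in percent, of each subunit in the summed CPM per kb of the 5 subunits, 1 bar per library. *Chrnb1* takes 63.3% to 67.5% in the WT libraries and 53.0% to 59.3% in the KL-/- libraries, with *Chrne* and *Chrna1* taking more in KL-/-.

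Ratios between subunits within a library do not depend on how libraries are scaled to each other. All 10 pairs were compared between the genotypes by exact permutation of the genotype labels (70 relabelings, two-sided), which allows a p of 0.0286 at the smallest. The groups did not overlap for 6 of 10 pairs, each at that smallest p, which became 0.0476 after Benjamini-Hochberg adjustment over the 10 pairs. The pairs are built from only 5 genes and 4 of the 6 contain *Chrna9*, so they are not independent of each other or of the differences of the single genes.

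The alpha to beta ratio was higher in KL-/- muscle. Per length, *Chrna1* to *Chrnb1* was 0.148, 0.161, 0.180 and 0.142 in WT and 0.294, 0.226, 0.316 and 0.227 in KL-/-, a difference of 0.74 on the log2 scale (adjusted exact permutation p = 0.0476). All 4 KL-/- ratios were above the highest WT ratio. The beta to epsilon ratio was lower in KL-/-. *Chrnb1* to *Chrne* was 2.78, 3.24, 3.58 and 3.55 in WT and 2.06, 2.60, 2.07 and 2.04 in KL-/-. The log2 difference was -0.58, with the same adjusted p from the exact permutation test. Before adjustment p was 0.0286 for each of these ratios in that test. The adjusted value is under 0.05 only because the pairs with *Chrna9* stand at the same p in the adjustment. It is therefore not read as a result of these ratios on their own.

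The alpha and epsilon transcripts kept a more even ratio to each other. *Chrna1* to *Chrne* was 0.520 ± 0.0956 per length in WT and 0.578 ± 0.0819 in KL-/- (SD, n = 4 each), a log2 difference of 0.16 (exact permutation p = 0.371, adjusted 0.371). The pairs with *Chrnd* also overlapped, with log2 differences of 0.41 for *Chrna1* to *Chrnd*, -0.33 for *Chrnb1* to *Chrnd* and -0.25 for *Chrnd* to *Chrne* and adjusted exact permutation p-values of 0.371 each. The spread of the *Chrnd* ratios in WT, with a log2 SD of 0.41 to 0.57, was of the size of these differences, so differences of that size were not resolved. The other 4 pairs involved *Chrna9*, whose difference between genotypes exceeded that of each muscle subunit, with log2 differences of -1.72 for *Chrna1*, -2.47 for *Chrnb1*, -2.13 for *Chrnd* and -1.89 for *Chrne* over *Chrna9*. Without WT replicate 4, which held 1 count of *Chrna9*, these were smaller, at -1.23, -1.93, -1.51 and -1.39 in the same order.

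**Figure D3:**
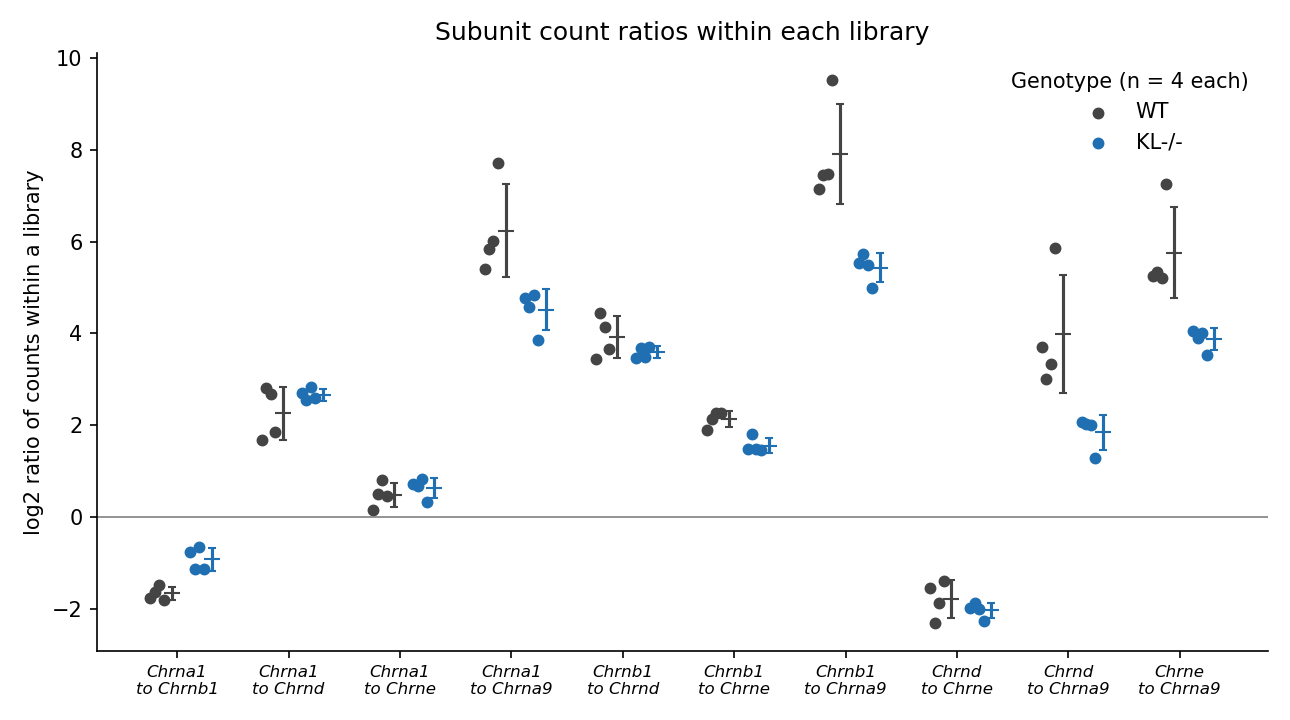
log2 ratio of counts (0.5 added to each) for all 10 pairs of subunits within each library, WT in grey and KL-/- in blue, with mean ± SD (n = 4 each). The genotypes are apart for *Chrna1* to *Chrnb1*, *Chrnb1* to *Chrne* and the 4 ratios to *Chrna9*, and overlap for the other 4 pairs.

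The subunits also varied between mice of the same genotype. *Chrne* and *Chrna9* had the most alike patterns of the 10 pairs, with a Pearson correlation of log2 CPM of 0.998 over the 8 samples and of 0.993 after each genotype's mean was removed. These points share libraries and, in the first value, the genotype difference, and *Chrna9* rests on few counts. The value within genotypes rests on WT replicate 4 and KL-/- replicate 4, which were the low and the high mouse for both genes, and it was -0.051 over the other 6 samples, a check added after the data were seen. Within genotypes over the 8 samples, *Chrna1* and *Chrne* gave 0.590, and *Chrnd* gave -0.27 to -0.021 with the other subunits. Among the 11997 genes whose mean log2 CPM was 0 or more, the 3 genes most like *Chrna1* over the 8 samples were *Lamp2* (0.970), *Brd9* (0.964) and *H1fx* (0.960). For *Chrnb1* they were *Meg3* (0.986), *Tgfbr3* (0.970) and *Casq2* (0.968), and for *Chrnd* they were *Kdm5d* (0.981), *Hgsnat* (0.964) and *Ciz1* (0.956). For *Chrne* they were *Dhrs7c* (0.986), *Prkaca* (0.980) and *Gas5* (0.976), and for *Chrna9*, itself below that level, they were *Chrne*, *Dhrs7c* (0.989) and *Lrp3* (0.982).

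Of 11 other nicotinic subunit genes, 2 were tested, and neither passed the threshold. *Chrna2* held 4, 14, 21 and 62 counts in WT and 33, 33, 53 and 28 in KL-/-, so that the widest spread was within WT (log2 fold change 0.57, edgeR FDR 0.501). *Chrna4* held 26 to 32 counts in WT and 16 to 33 in KL-/- (log2 fold change -0.48, edgeR FDR 0.269). The other 9, among them *Chrng*, the fetal gamma subunit, were not analysed here.

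Of 20 genes for clustering and anchoring the receptor at the endplate, 2 passed the threshold, both higher in KL-/-, where 7.35% of all genes were higher and 6.67% lower, and the median log2 fold change of the list was 0.0105 against -0.016 over all genes. *Sntb1*, a syntrophin of the dystrophin complex, rose from 3.99 ± 0.616 to 12.9 ± 2.85 CPM (log2 fold change 1.70, edgeR FDR 0.00226). *Dtna*, which encodes alpha-dystrobrevin, rose from 115 ± 4.20 to 139 ± 3.81 CPM (SD, n = 4), with a log2 fold change of 0.27 and an edgeR FDR of 0.0113. Both belong to the dystrophin complex of the muscle membrane. *Musk*, the receptor kinase that starts clustering, had a log2 fold change of -0.037 with a 95% interval from -0.44 to 0.37. *Rapsn*, the scaffold that binds the receptor, had 0.022 with an interval from -0.16 to 0.20. These last genes were chosen for their function after their values had been seen.

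Of 9 tested genes of neuregulin signalling and its ETS factors, 1 was higher, *Etv5*, an ETS factor concentrated under the endplate, which rose from 16.5 ± 2.51 to 21.98 ± 1.60 CPM (log2 fold change 0.41, edgeR FDR 0.0394). Of 21 genes that tie receptor transcription to muscle activity, 3 were higher and 2 lower, with a list median of -0.065. Over all genes 7.35% were higher and 6.67% lower, and nothing particular to these short lists is read from their counts. *Sik1*, a kinase that acts on class IIa histone deacetylases, was higher by 1.65 on the log2 scale (edgeR FDR 0.0264), with KL-/- muscles from 15.6 to 60.0 CPM against 8.36 to 10.8 CPM in WT. *Hdac5*, one of those deacetylases, was higher by 0.32 and *Camk2b*, a calcium-dependent kinase, by 0.28 (edgeR FDR 0.0243 and 0.0432). *Camk2d*, a kinase of the same family as *Camk2b*, had a log2 fold change of -0.41 (edgeR FDR 0.0417). *Myog*, the myogenic factor that rises after denervation, averaged 5.16 ± 2.31 CPM in WT muscle against 6.42 ± 3.63 CPM in KL-/- muscle (SD, n = 4, edgeR FDR 0.637).

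Of 11 genes known to respond when muscle loses its nerve, 6 were higher in KL-/- and 0 lower, with a median log2 fold change of 0.79. Over all genes 7.35% were higher and 6.67% lower, with a median of -0.016. The paper had already reported *Gdnf*, *Myh3* and *Myh8* as raised in these samples, so the list is not independent of the data. *Sln*, which encodes sarcolipin, a regulator of the calcium pump, rose by 2.19 on the log2 scale, from 0.327 to 0.879 CPM in WT to 1.88 to 4.35 CPM in KL-/- (edgeR FDR 0.00760). *Myh3* and *Myh8*, the embryonic and neonatal myosins, were higher by 1.49 and 1.16, and *Gdnf*, a survival factor of motor neurons, by 1.45 (edgeR FDR 0.0231, 0.00129 and 0.0102). *Gadd45a* and *Cdkn1a*, genes of growth arrest, were higher by 0.79 and 0.84 (edgeR FDR 0.0237 and 0.0457). The other 5 members did not pass, among them *Fgfbp1* at -1.45, the largest negative value of the list, *Ncam1* at 0.42 and *Runx1* at -0.32 (edgeR FDR 0.0537, 0.113 and 0.397).

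Of 15 tested genes for receptor assembly, folding and glycosylation, 1 was higher and 1 lower, with a median of -0.043. Over all genes 7.35% were higher and 6.67% lower, and nothing particular to this list is read from its counts. *Nomo1*, of the translocon at the endoplasmic reticulum, was higher by 0.51 (edgeR FDR 0.0496), and *Alg2*, a mannosyltransferase, had a log2 fold change of -0.24 (edgeR FDR 0.0498). Both lay close to the threshold.

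**Figure D4:**
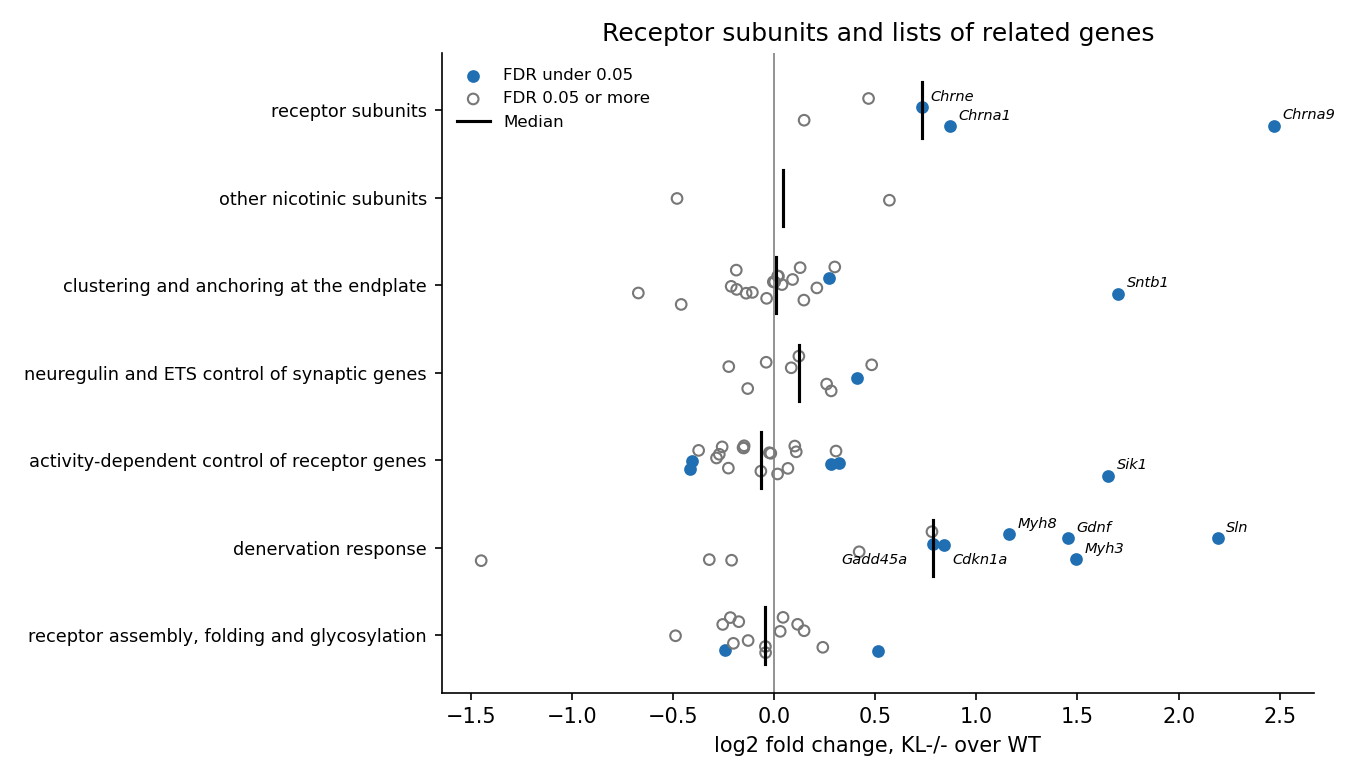
log2 fold change (KL-/- over WT) of the 5 receptor subunits and of each tested gene in 6 lists of related genes, with filled points for an FDR under 0.05 and a black line at the median of each list. Medians are 0.73 for the subunits and 0.79 for the denervation response, and between -0.065 and 0.12 for the other lists. The median over all genes is -0.016.

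Markers of other cells in the sample were examined beside the subunits. Of 8 Schwann cell markers, genes of the glia that wrap the nerve and cap the endplate, 4 were higher in KL-/- and 0 lower. *Mbp*, *Sox10* and *Prx* were among the 4, while *S100b* had a log2 fold change of -0.23 (edgeR FDR 0.503). The share of all genes was 7.35% higher and 6.67% lower, which stands beside each marker count in this paragraph. The 8 Schwann cell markers summed to 58.3 to 103 CPM in WT and 109 to 133 CPM in KL-/-. None of the 8 was at 0 in any library, and the lowest value was 0.449 CPM, of *Cdh19*. Their part in the subunit differences was not tested. The 8 markers of motor axons were not analysed here. Of the 8 myofiber markers none passed the threshold in edgeR's quasi-likelihood test, although all 8 had positive log2 fold changes with a median of 0.25, and the 3 called subunits stayed past it when libraries were scaled to those markers, at 0.65 for *Chrna1*, 0.50 for *Chrne* and 2.24 for *Chrna9*. The summed level of 5 satellite cell markers overlapped, at 53.3 to 62.8 CPM in WT and 57.0 to 62.7 CPM in KL-/-. Macrophage markers held 31.6 to 75.2 CPM in WT and 25.0 to 47.9 CPM in KL-/- with 1 of 6 lower (*Adgre1*), and fibro-adipogenic markers 461 to 1312 CPM and 258 to 644 CPM with 1 of 4 lower (*Dcn*). Of 4 endothelial markers 1 was lower (*Kdr*), of 4 smooth muscle markers 1 was higher (*Tagln*), and the single lymphocyte marker and the 2 keratinocyte markers that were tested did not pass.

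The calls on *Chrna1*, *Chrne* and *Chrna9* held across the tests and samples in which they could be fitted. *Chrna1* and *Chrne* passed the threshold in 9 of 9 other tests, scalings, filters and the replicate block and in all 8 fits that left out 1 mouse. *Chrna9* passed in 8 of 8 and in 8 of 8, but it could not be fitted under a minimum of 10 counts in every sample, which no WT library reached. A fit with no filter is not counted here, since it kept the same 12551 genes. Without KL-/- replicate 3, the library with the later batch date, log2 fold changes were 0.81 for *Chrna1*, 0.74 for *Chrne* and 2.53 for *Chrna9* (edgeR FDR 0.0421, 0.0235 and 0.0205).

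**Figure D5:**
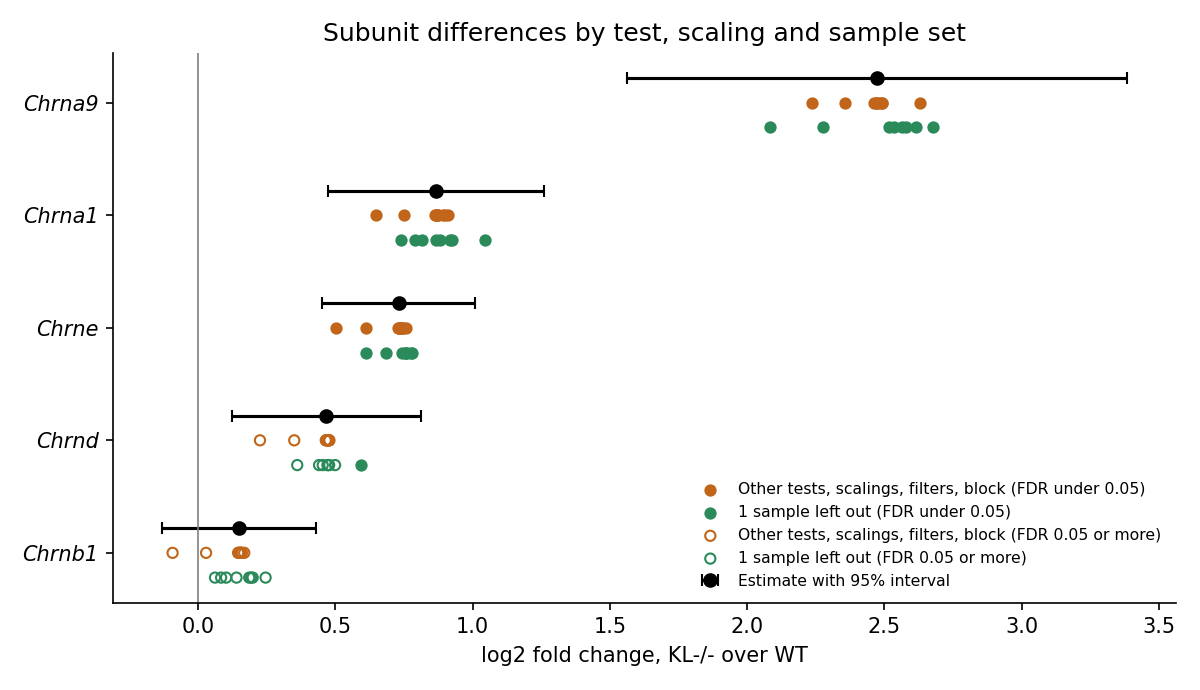
log2 fold change (KL-/- over WT) of each subunit with its 95% interval (black), under other tests, scalings, filters and the replicate block (orange) and with 1 mouse left out (green), with filled points for an FDR under 0.05. All points of *Chrna9*, *Chrna1* and *Chrne* are filled and above 0, *Chrnd* is filled once, and *Chrnb1* reaches -0.093 with myofiber scaling.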

How the data were processed

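RNA from 4 WT and 4 KL-/- TA muscles was sequenced by the authors from 100 ng per library. Per the methods and labels, read quality was checked with FastQC, STAR placed the reads on mm10, poorly mapped reads were dropped, and featureCounts assigned the rest to genes. The deposited values are raw counts, whole numbers without normalization, for 12551 genes. The annotation version and the use of strand are not given in the sources used here. The methods describe mRNA libraries and the labels total RNA. No exon of the 5 subunits overlapped an exon of another gene in the table or in GENCODE M21.

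Genotypes came from the labels. Counts were fitted in R 4.3.3 with edgeR 4.0.16 (filterByExpr, which kept all 12551 genes, TMM factors, genotype only, quasi-likelihood test, two-sided, Benjamini-Hochberg over all genes, FDR under 0.05). Ratios used counts plus 0.5. Alternatives were DESeq2 1.42.0, limma-voom (limma 3.58.1), the likelihood ratio test, 4 other scalings, 2 filters, a replicate block and leaving out each sample. On simulated counts for this comparison over 12551 genes, 76.0% of genes changed by 1 and 97.0% of genes changed by 2 on the log2 scale were recovered, with 11 false calls. The changed genes were drawn at random from all genes and smaller changes were not simulated. The rates therefore do not describe a gene of few counts such as *Chrna9*, or changes below 1.

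The members and lists were chosen with earlier results of these data known. All 5 subunits are named, and from each list up to 4 genes past the threshold per direction, otherwise the 2 with the smallest FDR, plus *Gdnf*. Genes named outside this rule (*Musk*, *Rapsn*, *Myog*, *Ncam1*, *Fgfbp1*, *Runx1*, *Cdkn1a*, *Gadd45a* and the cell type markers) were chosen after their values were seen. Some list members are not reported here on their own, and the counts and medians of their lists include them. Intervals cover the stated confidence of 95%, and those on pooled counts cover counting error only.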

Additional observations from a re-analysis of the deposited data

Results flagged for a closer look

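Values of each subunit and of each subunit ratio were screened in each genotype for a single mouse far from the other 3, by the gap to its nearest neighbour divided by the range of the group. Of 30 groups, 8 stood out, where chance gives about 1 in 20 groups, and the groups share mice and counts.

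WT replicate 4 was the low value of *Chrne* (gap over range 0.887) and of *Chrna9* (0.898) in WT. KL-/- replicate 4 was the high value of *Chrne* (0.940) and of *Chrna9* (0.848) in KL-/-. The same mice set the flagged ratios with *Chrna9*. In WT, replicate 4 was the high value of *Chrnb1* to *Chrna9* (0.863) and of *Chrne* to *Chrna9* (0.941), which rest on its 1 count of *Chrna9*. In KL-/-, replicate 4 was the low value of *Chrnd* to *Chrna9* (0.927), and replicate 2 was the high value of *Chrnb1* to *Chrne* (0.940). Without WT replicate 4 and without KL-/- replicate 4, *Chrne* and *Chrna9* stayed past the threshold. The cause of these values was not tested.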

How the results depend on the processing

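The number of genes past an FDR of 0.05, 1759 in edgeR's quasi-likelihood test, was 990 when libraries were scaled to *Ap3d1* and *Eef1a1*, and 762 to 2755 when 1 sample was left out (762 without KL-/- replicate 3, 775 and 780 without WT replicates 3 and 2, 778 without KL-/- replicate 4 and 2755 without KL-/- replicate 2). The share of these genes that were higher was 52.4%, and it was 37.3% with *Ap3d1* and *Eef1a1*, 18.8% with library totals and 5.32% with myofiber scaling. With library totals the median over all genes moved to -0.13. Replicate numbers are shared between genotypes but did not pair the mice (correlations of their deviations -0.146, 0.181, -0.368 and 0.017). With a replicate block 671 genes passed, the same 3 subunits among them. *Chrnb1*, not past the threshold in any of these fits, turned to -0.093 with myofiber scaling (FDR 0.612). *Chrnd* ranged from 0.36 to 0.59 when 1 sample was left out and passed only without WT replicate 1, while its FDR was 0.05002 in DESeq2. The subunit ratios kept their direction, and 6 pairs were without overlap under each pseudocount. Leaving out a sample cannot make groups overlap that lie apart, nor turn their direction, so those fits do not test the 6 pairs. Depth limits *Chrna9* in WT, at 1 to 8 counts. No value separates the batch date of KL-/- replicate 3 from that mouse. The causes of these differences were not tested.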
